A study of Mus musculus with 9 samples.

Results

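The genes described here are the axon guidance ligands and receptors of the developing mouse cortex. They were chosen by symbol, as all protein-coding genes of GENCODE M21 named as ephrins, Eph receptors, semaphorins of classes 3 to 7, plexins, neuropilins, netrins, netrin-Gs, Dcc, Unc5 receptors, Slits or Robos. This gave 71 of the 35498 genes in the tables: 8 ephrins, 14 Eph receptors, 20 semaphorins, 11 plexins and neuropilins, 11 netrins with their receptors and netrin-Gs, and 7 Slits and Robos. RNA was sequenced from whole cortical tissue of C57Bl/6 mouse embryos at E13.5 (the age in days of embryonic development), with 3 libraries in each of 3 genotype groups. WT was Smarca1 +/+ with no Cre allele, Smarca1 KO was Smarca1 -/- with no Cre allele, and DKO was Smarca1 -/- with a Cre allele. The design text of the series names DKO as lacking both Smarca1 and Smarca5, which encode the ATPases SNF2L and SNF2H of the ISWI chromatin remodelling complexes. Which promoter drives the Cre, which exons are deleted and which Smarca5 alleles WT and Smarca1 KO carry is not given in the sources used here. In DKO the Cre and the loss of Smarca5 come together and cannot be told apart. Nothing in the labels says that the replicates came from separate embryos, and p-values therefore cover only a spread between libraries that may be technical.

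Guidance cues steer growing axons and migrating neurons. Ephrins are bound to the membrane and signal through the Eph receptor tyrosine kinases on touching cells. Semaphorins act through plexins, with neuropilins as co-receptors for most of the secreted class 3. Netrins act through Dcc and the Unc5 receptors, and Slits through Robos. In the cortex these families act on progenitors, on migrating neurons and on the first axons, and some also act on blood vessels.

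Counts summed over genes lay between 27466046 and 46007527 per library, of which the guidance genes held 0.656% to 0.733%. Smarca5 RNA was at 84.4, 79.2 and 77.2 CPM (counts scaled by TMM to a common library total) in DKO, 246, 243 and 212 CPM in Smarca1 KO libraries and 267, 271 and 262 CPM in WT. Its DKO libraries lay below all others, and its log2 fold change was −1.54 against Smarca1 KO (adjusted p = 2.99e-06) and −1.73 against WT (adjusted p = 2.05e-06). Smarca1 RNA was at 37.9, 38.8 and 38.4 CPM in DKO, 42.3, 35.3 and 43.8 CPM in Smarca1 KO libraries and 37.8, 36.4 and 37.2 CPM in WT. With the deleted exons not given, the Smarca1 RNA does not check that label. Neural markers were present in all libraries, with summed projection neuron markers at 5247 to 6871 CPM and radial glia markers at 2828 to 3571 CPM. Markers of meninges and mesenchyme summed to 388 to 943 CPM and were highest in DKO replicate 1 and Smarca1 KO replicate 1.

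Levels between genes are compared in TPM, which is scaled by transcript length. Of the 71 genes, 68 passed the filter on low counts and were tested. The 68 had a median of 23.2 TPM over the 9 libraries, with 9 above 100 TPM, 50 above 10 TPM and 2 below 1 TPM. The other 3 were the Eph receptor gene Epha1 at 2 to 15 counts per library, the netrin gene Ntn5 at 0 to 8 counts and the plexin gene Plxnb3 at 0 to 8 counts.

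Among the ligands, the transmembrane ephrin genes Efnb1 and Efnb2 were the highest, averaging 148 and 132 TPM over the 9 libraries, while Efnb3 stood at 74.4 TPM. The highest semaphorins were all membrane-bound, namely Sema6c at 124 TPM, Sema5b at 76.5 TPM and Sema4c at 71.4 TPM. Among netrin family genes the netrin-G gene Ntng2 stood at 116 TPM. Ntng2 encodes a lipid-anchored protein that does not bind Dcc, and 11.7% of its 31-base stretches occur in other genes. The netrin receptor gene Dcc stood at 38.3 TPM and Ntn1, the secreted netrin gene with the highest level, at 21.6 TPM. Of the Ntng2 reads 43.2% to 51.6% were assigned to a transcript of 1957 bases annotated for nonsense-mediated decay, and in CPM, which is not scaled by length, Ntng2 (84.4) was below Dcc (211). Slit1 was the highest Slit at 41.1 TPM.

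Among the receptors, the plexin genes Plxna3 (149 TPM) and Plxnb2 (146 TPM) were the highest, followed by the A-type Eph receptor gene Epha4 (109 TPM), Plxnb1 (105 TPM) and Epha5 (100.2 TPM). Epha3 stood at 63.1 TPM. Robo2 stood at 83.0 TPM and Robo1 at 47.6 TPM. Plxna3 had an SD of 0.892 TPM around 136 TPM in WT, 16.1 TPM around 153 TPM in Smarca1 KO and 12.4 TPM around 158 TPM in DKO. Ntng2 had an SD of 3.97 TPM around 116 TPM in WT, 15.5 TPM around 118 TPM in Smarca1 KO and 22.9 TPM around 115 TPM in DKO. For both genes the Smarca1 KO and the DKO libraries were spread more widely than the WT libraries.

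**Figure D1:**
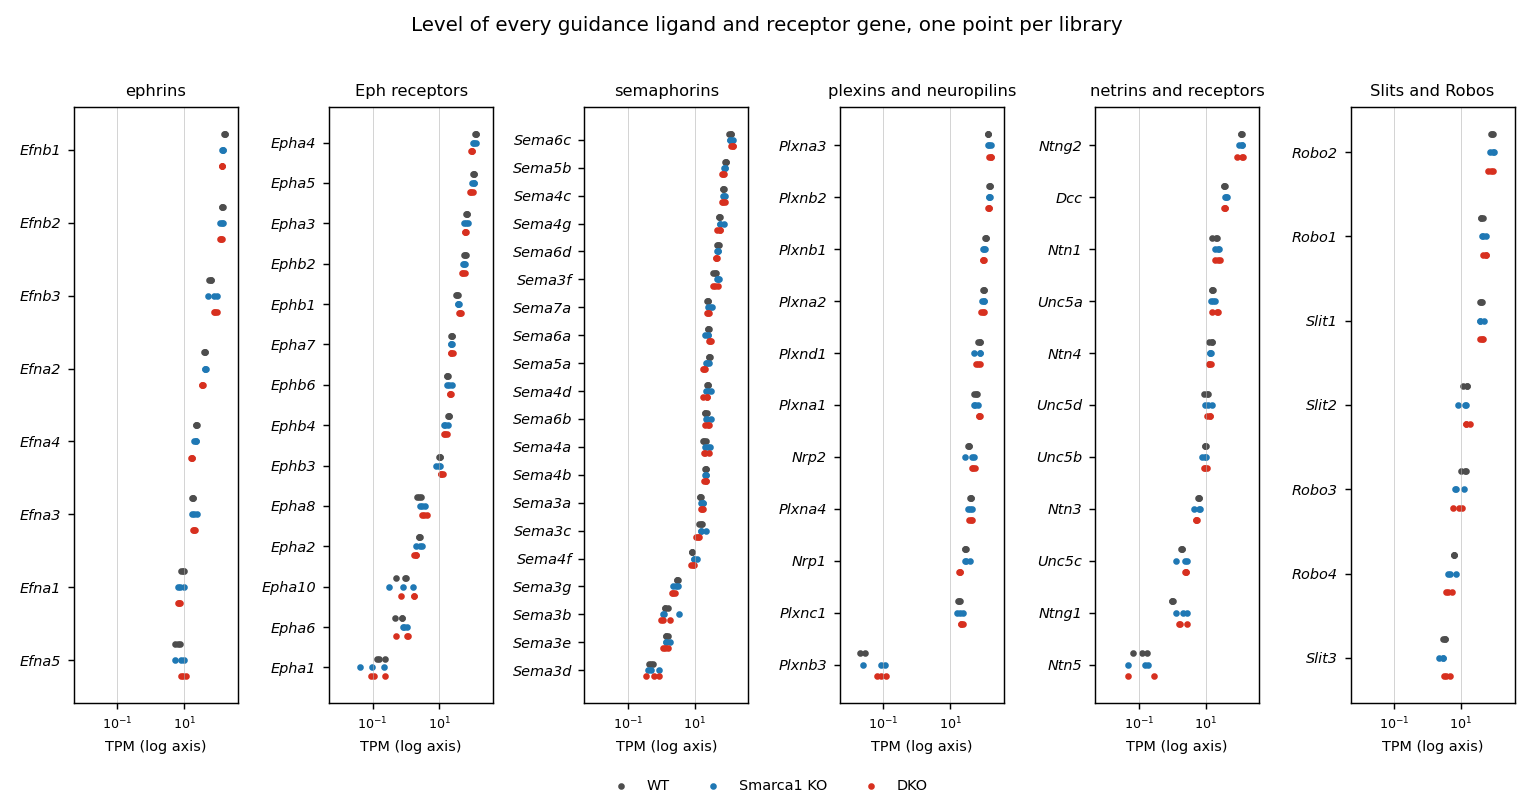
Level of each guidance gene in each of the 9 libraries, in TPM on a log axis, grouped by family and coloured by genotype. Libraries in which a gene is listed at 0 are not drawn. Plxna3, Efnb1 and Plxnb2 are at the top, at 149, 148 and 146 TPM on average, and Epha1, Ntn5 and Plxnb3, which were not tested, lie at the bottom.

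TPM was then summed over the members of each family. Eph receptors summed to 462 ± 15.8 TPM in WT (SD, n = 3), 444 ± 21.1 TPM in Smarca1 KO and 416 ± 20.2 TPM in DKO. Ephrins summed to 468 ± 15.9 TPM in WT, 450 ± 12.7 TPM in Smarca1 KO and 434 ± 12.8 TPM in DKO. In both families all 3 DKO libraries lay below all 3 WT libraries, and no test was run on the sums. In the other families the DKO and WT libraries overlapped. Within families, members moved in both directions, as the single genes show.

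**Figure D2:**
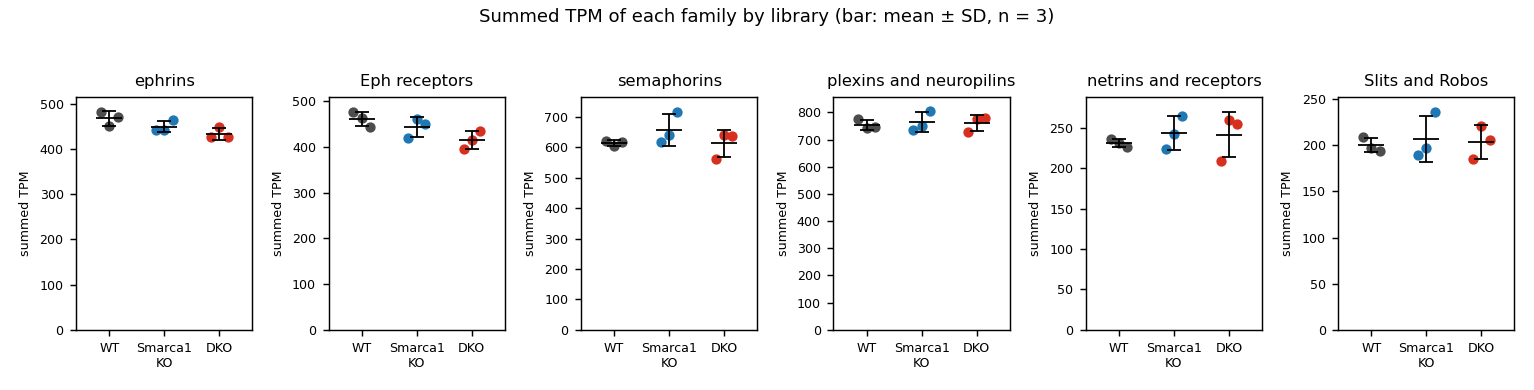
Summed TPM of the members of each family in each library, with bars at the mean ± SD of 3 libraries per group and each axis starting at 0. The DKO libraries lie below the WT libraries for ephrins (434 against 468 TPM on average) and Eph receptors (416 against 462 TPM) and overlap them in the other 4 families.

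In the comparison of DKO with Smarca1 KO, both groups are labelled Smarca1 -/- and only DKO carries the Cre allele. Of 68 guidance genes tested, 5 fell and none rose at an adjusted p under 0.05 in edgeR's quasi-likelihood test. This is 7.35% of the members, against 4.39% of all 15773 genes tested (2.66% lower, 1.73% higher). At an unadjusted p under 0.05, which 18.4% of all genes passed, 7 members were higher and 14 lower. DESeq2 called 3 members higher and 7 lower, and 1183 genes in all. The 5 were the co-receptor gene Nrp1, the class 3 semaphorin gene Sema3c, the transmembrane semaphorin gene Sema5a and the ephrin genes Efna2 and Efna4. With the DKO and Smarca1 KO libraries fitted alone in edgeR, Nrp1 kept its call (adjusted p = 0.0381). In that fit Efna2 (adjusted p = 0.0637), Sema3c (0.0979), Sema5a (0.131) and Efna4 (0.146) lost theirs. The median log2 fold change of the members was −0.038, against 0.0041 over all genes, and their median absolute log2 fold change was 0.12 against 0.10. The 3 libraries of DKO and of Smarca1 KO did not overlap in 14 of the 68 (4 higher, 10 lower in DKO), 20.6% of them, against 20.5% of all genes.

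Nrp1 (ENSMUSG00000025810.9, GRCm38 chromosome 8, 128358604 to 128503363) encodes neuropilin-1, the co-receptor of semaphorin 3A and of the vascular growth factor VEGF-A. It was at 37.1, 36.7 and 34.5 CPM in the DKO libraries, 53.9, 58.9 and 75.7 CPM in Smarca1 KO libraries and 54.2, 54.8 and 51.0 CPM in WT. All DKO libraries lay below all others, and Smarca1 KO replicate 3 was the highest. Nrp1 fell in DKO against Smarca1 KO, to 57.5% of its mean level there (log2 fold change of −0.80 with SE 0.108, adjusted p = 0.00491, edgeR). Without Smarca1 KO replicate 3 the log2 fold change was −0.65 (adjusted p = 0.00104). It fell against WT as well, to 67.7% of the WT mean (log2 fold change of −0.56 with SE 0.108, adjusted p = 0.0136), although this call was lost without any 1 of DKO replicate 3, WT replicate 1 and WT replicate 2, the highest adjusted p being 0.0569. The transcript Nrp1-201 held 95.4% to 97.3% of the gene's reads.

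Blood vessels also make Nrp1 RNA. The 10 endothelial markers summed to 207 to 289 CPM in DKO, 206 to 326 CPM in Smarca1 KO libraries and 253 to 267 CPM in WT, ranges that overlap, and edgeR and DESeq2 called 0 of the 10 in any comparison, while 2 were lower at an unadjusted p under 0.05 in DKO against Smarca1 KO. Their part in the Nrp1 result was not tested. In such bulk tissue, fewer cells of a type and less RNA per cell cannot be told apart, for Nrp1 and for every gene below. The related co-receptor gene Nrp2, which encodes the receptor for semaphorin 3F, was at 164, 192 and 172 CPM in DKO, 155, 99.4 and 181 CPM in Smarca1 KO libraries and 128, 118 and 131 CPM in WT. All its DKO libraries lay above all WT libraries, but edgeR did not call it (log2 fold change 0.48, adjusted p = 0.0933 against WT), while DESeq2 and the edgeR fit of the WT and DKO libraries alone did. Whether Nrp1 and Nrp2 differ in their response was not tested.

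Of the class 3 ligands, most of which signal through neuropilins, Sema3c was called. It was at 34.3, 34.1 and 29.7 CPM in DKO, 43.1, 43.5 and 57.8 CPM in Smarca1 KO libraries and 44.1, 41.8 and 37.1 CPM in WT. The DKO libraries were the lowest 3, and Smarca1 KO replicate 3 was the highest, as for Nrp1. Compared with Smarca1 KO it fell in DKO (log2 fold change of −0.56 with SE 0.118, adjusted p = 0.0315), and its log2 fold change was −0.41 without Smarca1 KO replicate 3 (adjusted p = 0.0298). The call was lost without any 1 DKO replicate, WT replicate 1 or WT replicate 2, and when counts were adjusted for Salmon's effective lengths, here called effective-length offsets (adjusted p = 0.0582). Against WT its log2 fold change was −0.33 and was not called by edgeR (adjusted p = 0.0962), though DESeq2 called it. Sema3a, the ligand of Nrp1, was at 40.0, 45.4 and 43.7 CPM in DKO, 41.5, 46.4 and 43.0 CPM in Smarca1 KO libraries and 38.8, 39.2 and 38.7 CPM in WT. The edgeR fit of all 9 libraries and DESeq2 called it in no comparison. Its log2 fold change was −0.019 against Smarca1 KO and 0.15 against WT. Without both replicates 1 of Smarca1 KO and DKO, edgeR called Sema3a in DKO against WT.

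Sema5a (ENSMUSG00000022231.10, chromosome 15, 32244810 to 32696341) encodes a transmembrane semaphorin with thrombospondin repeats. It was at 113, 109 and 105 CPM in DKO, 137, 158 and 122 CPM in Smarca1 KO libraries and 165, 153 and 158 CPM in WT. The groups did not overlap between DKO and either other group. Sema5a fell to 68.8% of its mean level in WT (log2 fold change of −0.54 with SE 0.080, adjusted p = 0.00536), a call kept when any 1 library was left out. It also fell to 78.5% of the level in Smarca1 KO (log2 fold change of −0.35 with SE 0.081, adjusted p = 0.0431), but that call was kept in only 1 of the 9 fits that left out a library, the one without Smarca1 KO replicate 3. It was also lost with effective-length offsets (adjusted p = 0.0656).

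Efna2 and Efna4 encode lipid-anchored ephrins that bind A-type Eph receptors. Efna2 was at 35.3, 36.9 and 35.2 CPM in DKO, 42.4, 46.4 and 43.4 CPM in Smarca1 KO libraries and 44.8, 41.0 and 43.9 CPM in WT, so that the DKO libraries lay below the rest. It fell to 81.3% of its Smarca1 KO level (log2 fold change −0.30, adjusted p = 0.0159) and 82.8% of its WT level (−0.27, adjusted p = 0.0149). Each of these calls was kept in 6 of the 9 fits that left out a library. The first was lost without Smarca1 KO replicate 2, DKO replicate 1 or DKO replicate 3, and the second without DKO replicate 3, WT replicate 1 or WT replicate 3. Efna4 was at 13.7, 12.6 and 13.9 CPM in DKO, 15.6, 19.1 and 17.6 CPM in Smarca1 KO libraries and 19.0, 18.1 and 18.6 CPM in WT, with the DKO libraries again the lowest 3. It fell against WT (log2 fold change of −0.47 with SE 0.085, adjusted p = 0.0113) and against Smarca1 KO (−0.37, adjusted p = 0.0410). The latter call was kept in 1 of the 9 fits that left out a library, the one without Smarca1 KO replicate 1, and the former in 8, all but the one without WT replicate 1 (adjusted p = 0.0518). With limma-voom the call against Smarca1 KO was lost (adjusted p = 0.0544), and 8.80% of the 31-base stretches of Efna4 transcripts also occur in other genes. The lipid-anchored ephrin genes Efna1, Efna3 and Efna5 were not called by the edgeR fit of all 9 libraries or DESeq2. Their log2 fold changes were −0.19, −0.066 and 0.25 in DKO against Smarca1 KO and −0.37, 0.12 and 0.51 against WT. The edgeR fit of the WT and DKO libraries alone called Efna5.

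Efna2, Efna4, Nrp1 and Sema5a were lower in DKO in both comparisons, which share the DKO libraries. Their promoters, the 250 bases before each RefSeq transcription start on GRCm38.p6, are shown because these 4 genes moved the same way. Capitals mark the GC box GGGCGG and the inverted CCAAT box ATTGG, searched on both strands, so that CCGCCC and CCAAT also count. Each sequence runs 5′ to 3′ along the strand of its gene, from chr10:80179232-80179481 on the plus strand for Efna2, chr3:89338029-89338278 on the minus strand for Efna4, chr8:128358823-128359072 on the plus strand for Nrp1 and chr15:32244563-32244812 on the plus strand for Sema5a.
Efna2: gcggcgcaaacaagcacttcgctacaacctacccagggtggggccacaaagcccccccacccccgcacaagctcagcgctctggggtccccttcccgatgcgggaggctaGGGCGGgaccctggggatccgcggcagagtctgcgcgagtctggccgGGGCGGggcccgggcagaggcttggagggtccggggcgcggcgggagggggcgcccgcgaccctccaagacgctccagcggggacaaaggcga
Efna4: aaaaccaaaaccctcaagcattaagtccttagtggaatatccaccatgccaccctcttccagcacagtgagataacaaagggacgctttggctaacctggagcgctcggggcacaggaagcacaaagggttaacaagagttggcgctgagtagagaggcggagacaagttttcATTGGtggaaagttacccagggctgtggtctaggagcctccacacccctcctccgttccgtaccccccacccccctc
Nrp1: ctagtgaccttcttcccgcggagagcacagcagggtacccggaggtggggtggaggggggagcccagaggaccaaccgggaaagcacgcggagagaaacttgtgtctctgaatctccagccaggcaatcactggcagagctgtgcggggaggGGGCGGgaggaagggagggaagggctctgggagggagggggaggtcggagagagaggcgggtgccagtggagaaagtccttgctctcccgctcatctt
Sema5a: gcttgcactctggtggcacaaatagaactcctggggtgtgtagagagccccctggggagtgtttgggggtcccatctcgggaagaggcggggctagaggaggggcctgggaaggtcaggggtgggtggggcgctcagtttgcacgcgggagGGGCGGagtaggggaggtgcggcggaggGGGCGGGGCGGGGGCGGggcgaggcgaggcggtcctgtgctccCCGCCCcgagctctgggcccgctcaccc

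The promoters of Efna2, Nrp1 and Sema5a held 2, 1 and 5 GC boxes, some of them overlapping in Sema5a, and that of Efna4 held none and 1 inverted CCAAT box. A GC box was in 32.7% of 32851 RefSeq promoter windows of this length and in 70.1% of the 77 windows that belong to 61 guidance genes. None of the 4 held TATAAA or the E-boxes CAGATG and CAGCTG on either strand, which were in 12.4%, 14.4% and 13% of all windows. A match is a description of the letters and not a bound site. The RefSeq start of Nrp1 lies 469 bases downstream of the GENCODE start of the gene, so the window shown lies inside the gene as GENCODE annotates it. The Sema5a window overlaps the first exon of Snhg18, a non-coding gene on the other strand.

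**Figure D3:**
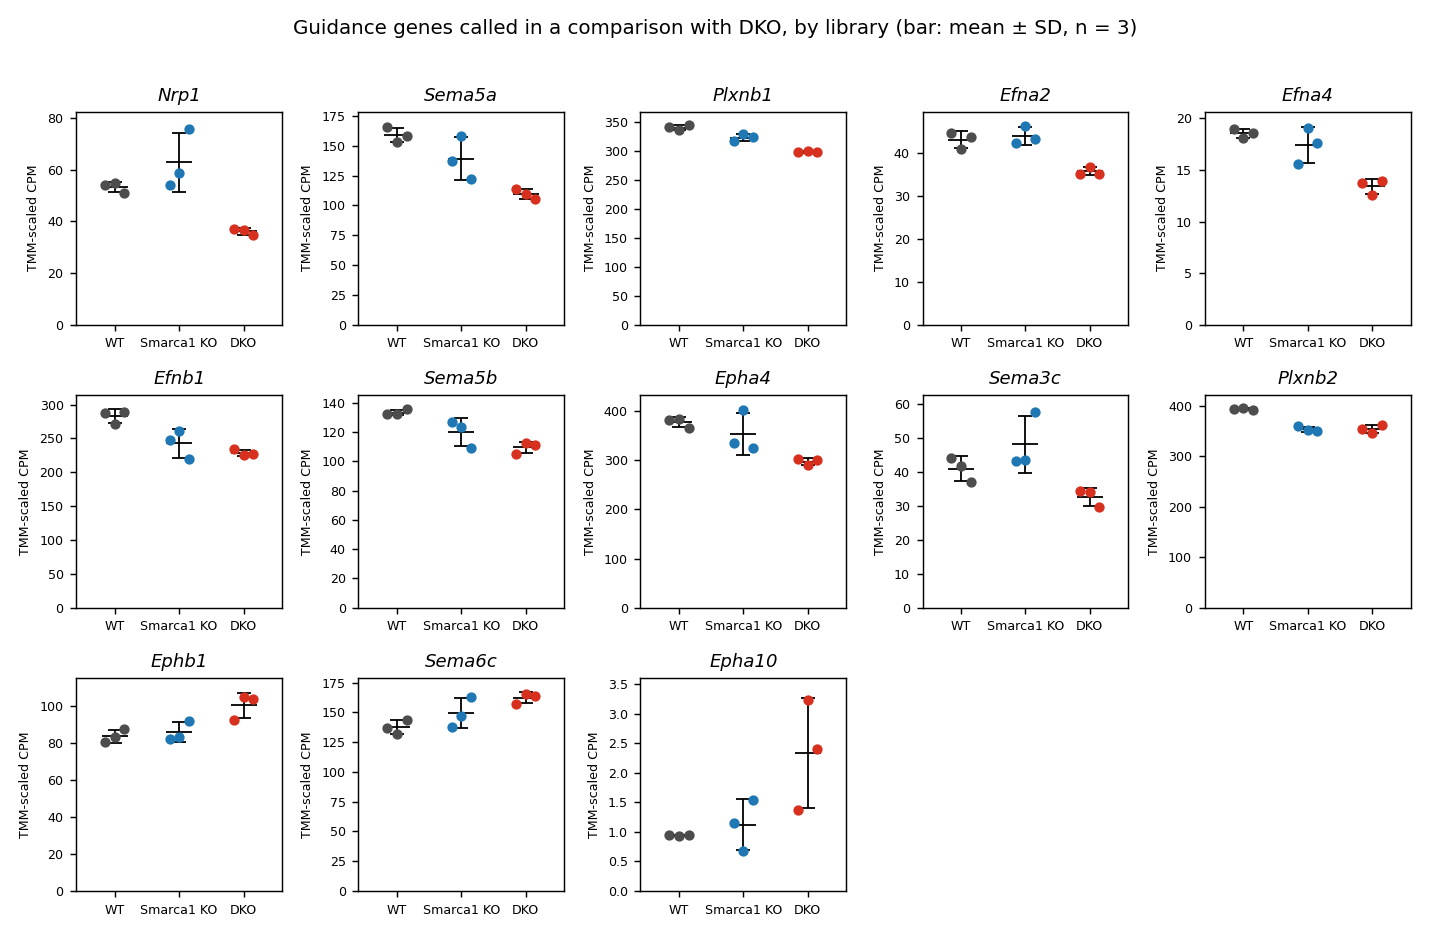
TMM-scaled CPM of the 13 guidance genes called in at least 1 comparison, by library, with bars at the mean ± SD of 3 libraries per group and axes starting at 0. In the first panel the DKO libraries of Nrp1 lie at 34.5 to 37.1 CPM, below all others, and Smarca1 KO replicate 3 stands out at 75.7 CPM.

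DKO against WT compares groups whose labels differ in both the Smarca1 genotype and the Cre allele. Of the 68 guidance genes 3 rose and 9 fell, 17.6% of the members against 12% of all genes tested (5.61% higher, 6.35% lower). Besides Sema5a, Efna2, Efna4 and Nrp1, the genes that fell were Efnb1, Sema5b, Epha4, Plxnb1 and Plxnb2, and those that rose were Ephb1, Sema6c and Epha10. The members' median log2 fold change was 0.013, against 0.0078 over all genes, and their median absolute log2 fold change was 0.24 against 0.14. DKO and WT libraries did not overlap in 42 of the 68 (20 higher, 22 lower), 61.8% of the members against 41.3% of all genes. With DESeq2 10 members rose and 14 fell, and with the WT and DKO libraries fitted alone 17 rose and 15 fell. The count over all genes grew as well, from 1887 to 2869 with DESeq2 and 3443 in the fit of those libraries.

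Among the ligands, Efnb1, the X-linked gene of the ephrin with the highest level, was at 234, 225 and 228 CPM in DKO, 248, 262 and 219 CPM in Smarca1 KO libraries and 288, 272 and 290 CPM in WT. The WT libraries were the highest 3. Efnb1 fell in DKO against WT (log2 fold change of −0.31 with SE 0.061, adjusted p = 0.0155), and the Smarca1 KO libraries overlapped those of DKO. The call was lost without DKO replicate 2, DKO replicate 3, WT replicate 1 or WT replicate 3 (adjusted p up to 0.0638). EdgeR did not call the other transmembrane ephrin genes, which pointed in opposite directions in DKO against WT, with log2 fold changes of −0.16 for Efnb2 and 0.47 for Efnb3. DESeq2 called Efnb3 in this comparison, and the edgeR fit of the WT and DKO libraries alone called both.

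Sema5b, the close relative of Sema5a, was at 105, 112 and 111 CPM in DKO, 127, 123.3 and 109 CPM in Smarca1 KO libraries and 132, 132 and 136 CPM in WT. Against WT it fell in DKO (log2 fold change of −0.28 with SE 0.057, adjusted p = 0.0155), so both class 5 semaphorin genes fell in this comparison. The Sema5b call was lost without DKO replicate 3 or any 1 WT library (adjusted p up to 0.0627). Sema6c, the semaphorin gene with the highest TPM, went the other way. It was at 157, 166 and 164 CPM in DKO, 138, 147 and 163 CPM in Smarca1 KO libraries and 137, 132 and 144 CPM in WT, and rose in DKO against WT (log2 fold change of 0.24 with SE 0.061, adjusted p = 0.0366). The Sema6c call was lost without any 1 WT library, DKO replicate 2 or DKO replicate 3 (adjusted p up to 0.145), with effective-length offsets (adjusted p = 0.120) and with protein-coding transcripts only (adjusted p = 0.0700). EdgeR did not call the other 17 semaphorin genes in DKO against WT, among them Sema6a and Sema6d, with log2 fold changes of 0.20 and −0.13. DESeq2 called Sema3c and Sema3g here, and the edgeR fit of these libraries alone called Sema3c, Sema3g and Sema6a.

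Among the receptors, Epha4, which binds ephrins of both the A and the B type, was at 302, 289.5 and 300.1 CPM in DKO, 334, 403 and 325 CPM in Smarca1 KO libraries and 383, 384 and 365.5 CPM in WT. All DKO libraries lay below all others. Epha4 fell to 78.7% of its WT level (log2 fold change of −0.34 with SE 0.073, adjusted p = 0.0192), and its log2 fold change against Smarca1 KO was −0.25 (adjusted p = 0.0889). The transcript Epha4-205, annotated for nonsense-mediated decay, was assigned 37.3% of the gene's reads in WT replicate 1 and 70.8% to 88.3% in the other libraries but Smarca1 KO replicate 3, at 59.0%. With protein-coding transcripts alone the call was lost (log2 fold change −0.94, adjusted p = 0.284), as it was without any 1 WT library, DKO replicate 2 or DKO replicate 3 (adjusted p up to 0.0729).

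Plxnb1 and Plxnb2 encode plexins that bind class 4 semaphorins. Plxnb1 was at 298.5, 300.5 and 298 CPM in DKO, 317, 330 and 324 CPM in Smarca1 KO libraries and 341, 337 and 345 CPM in WT, with no overlap between any pair of groups. It fell to 87.7% of its WT level (log2 fold change of −0.19 with SE 0.033, adjusted p = 0.00977), a call kept when any 1 library was left out. Plxnb2 was at 353, 346 and 362 CPM in DKO, 359, 351 and 349 CPM in Smarca1 KO libraries and 394, 394 and 391 CPM in WT. DKO and Smarca1 KO overlapped and both lay below WT. Plxnb2 fell in DKO against WT (log2 fold change of −0.15 with SE 0.034, adjusted p = 0.0231). This call was kept in 4 of the 9 fits that left out a library and was lost without any 1 WT library, DKO replicate 2 or DKO replicate 3 (adjusted p up to 0.0839), and with effective-length offsets (adjusted p = 0.0935). The class 4 ligand genes Sema4c, Sema4d and Sema4g were not called by the edgeR fit of all 9 libraries or DESeq2. Their log2 fold changes were 0.0078, −0.26 and −0.0059 in DKO against WT.

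Ephb1, a receptor of B-type ephrins that guides retinal axons at the optic chiasm, was at 92.9, 105 and 104 CPM in DKO, 82.5, 83.3 and 92.2 CPM in Smarca1 KO libraries and 80.6, 83.5 and 87.7 CPM in WT. The DKO libraries were the highest 3, and Ephb1 rose against WT (log2 fold change of 0.26 with SE 0.063, adjusted p = 0.0279). The Ephb1 call was kept in 4 of the 9 fits that left out a library and was lost without any 1 WT library, DKO replicate 2 or DKO replicate 3 (adjusted p up to 0.117). Epha10, whose product lacks kinase activity, was at a low level, with 1.38, 3.24 and 2.40 CPM in DKO, 1.15, 0.682 and 1.53 CPM in Smarca1 KO libraries and 0.948, 0.936 and 0.947 CPM in WT. It rose in DKO against WT (log2 fold change of 1.30 with SE 0.35, adjusted p = 0.0422). The Epha10 call was kept in 3 of the 9 fits that left out a library, and lost without Smarca1 KO replicate 1, DKO replicate 2, DKO replicate 3 or any 1 WT library (adjusted p up to 0.137). It was also lost with limma-voom (adjusted p = 0.0612) and with effective-length offsets, where the log2 fold change was 0.76 (adjusted p = 0.398). EdgeR did not call the A-type receptor gene Epha5 or the B-type gene Ephb2, with log2 fold changes of −0.21 and −0.25 against WT, while DESeq2 and the edgeR fits of these libraries alone and without a filter on low counts called Ephb2.

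No netrin, netrin-G, Dcc, Unc5, Slit or Robo gene was called in any comparison by the edgeR fit of all 9 libraries. Of these 17 tested genes, 3 had an unadjusted p under 0.05 when DKO was set against Smarca1 KO, 6 when it was set against WT and 4 for Smarca1 KO against WT, where 18.4%, 31% and 18.9% of all genes had one. DESeq2 called Ntng1, Unc5a and Robo1, all higher in DKO against WT (2869 genes in all), and none of the 17 elsewhere. The edgeR fit of the WT and DKO libraries alone called Ntng1, Robo1, Unc5a, Unc5c and Unc5d (3443 genes in all). Without both replicates 1 of Smarca1 KO and DKO, edgeR called Ntng1, Robo1, Robo3, Robo4, Unc5a and Unc5d in DKO against WT (2797 genes in all). In Smarca1 KO against WT that setting called Robo2 and Unc5d (607 genes in all). Exons of Unc5a overlap Hk3 on the opposite strand, and the reads of the pair may not be separable. The netrin-G gene Ntng1 was at 3.75, 6.41 and 4.66 CPM in DKO, 4.42, 3.28 and 6.38 CPM in Smarca1 KO libraries and 2.59, 2.67 and 2.91 CPM in WT. Its WT libraries lay below all others, and its log2 fold change was 0.86 in DKO against WT (adjusted p = 0.0609) and 0.78 in Smarca1 KO against WT (adjusted p = 0.181). Dcc was at 212, 214 and 191 CPM in DKO, 229, 217 and 235 CPM in Smarca1 KO libraries and 211, 201 and 189 CPM in WT, with log2 fold changes between −0.14 and 0.18 over the 3 contrasts. Robo1 had a log2 fold change of 0.32 (adjusted p = 0.0783), Robo2 of −0.089 and Slit1 of 0.017 in DKO against WT.

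**Figure D4:**
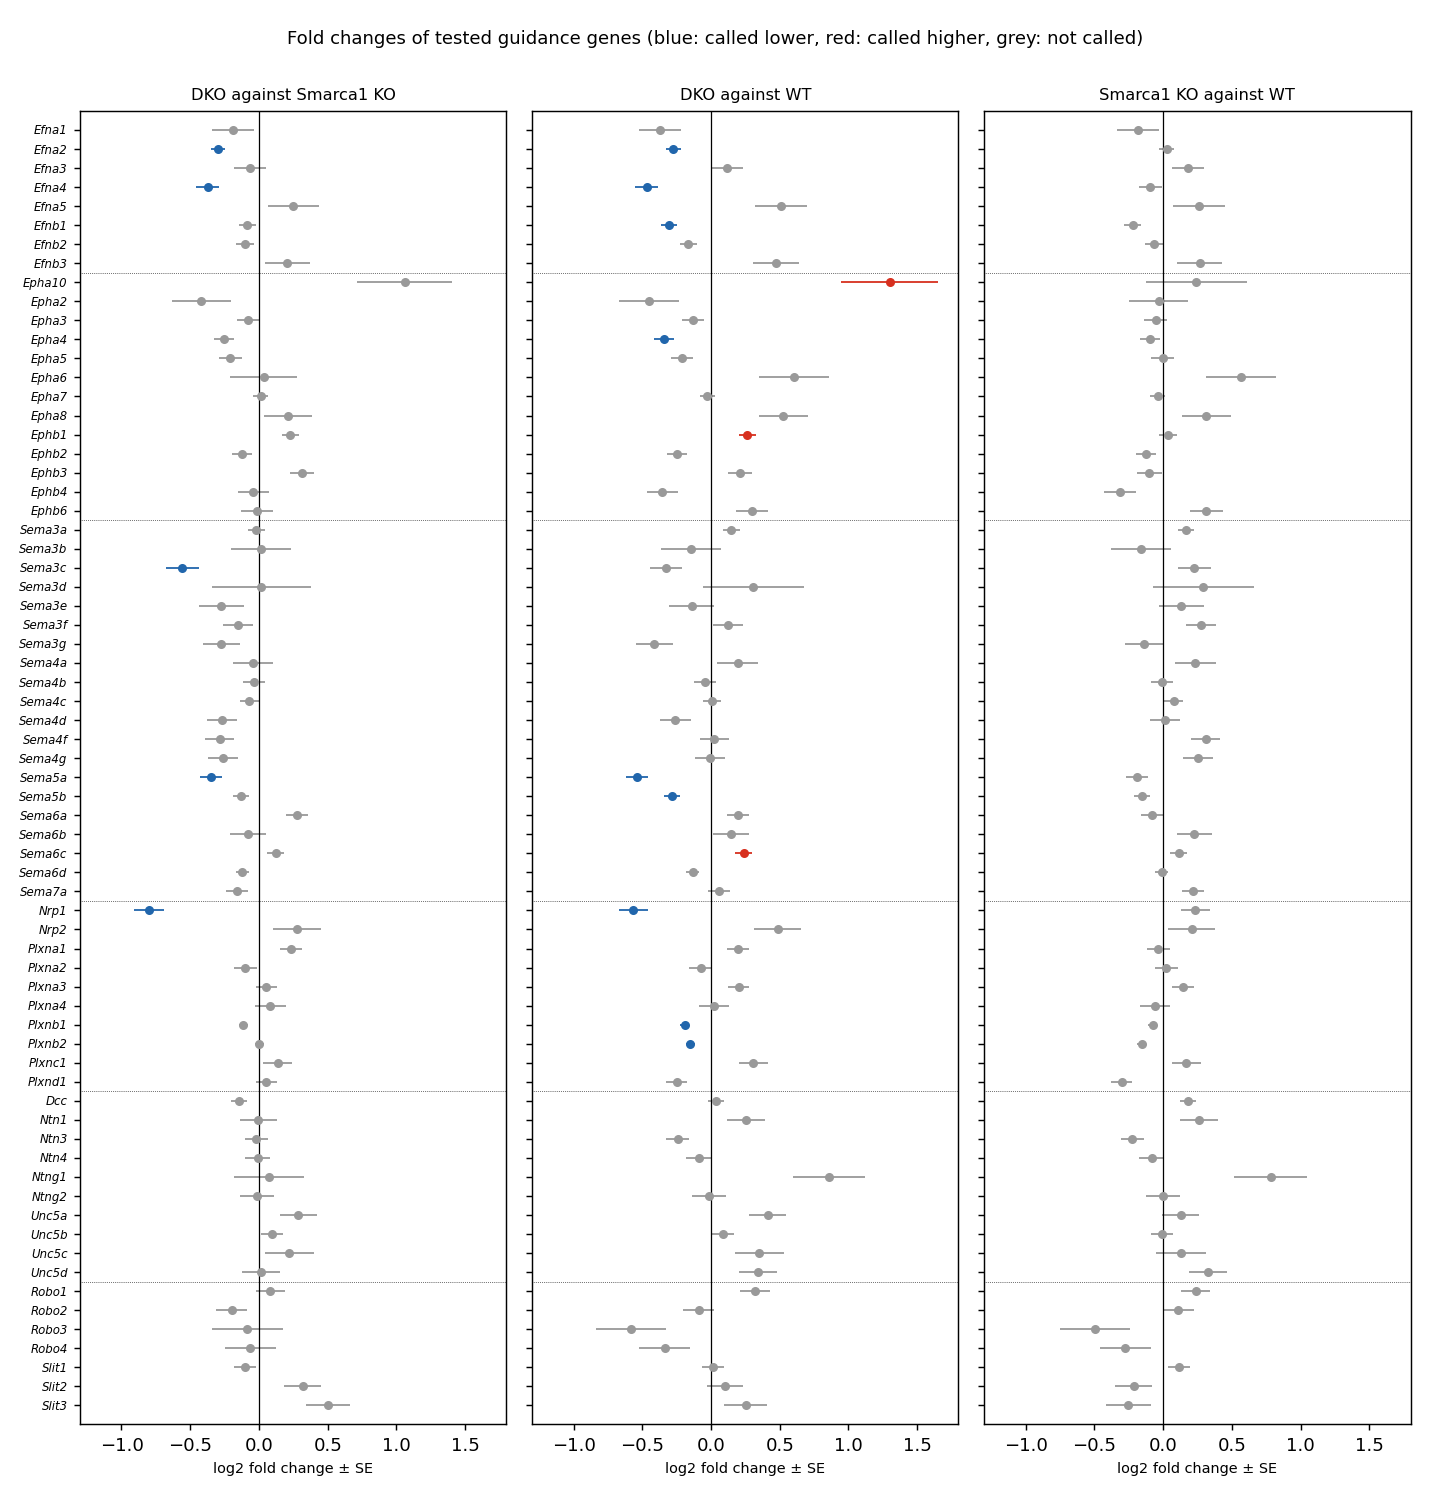
Log2 fold change ± SE of the 68 tested guidance genes in the 3 comparisons, ordered by family, with genes called lower in blue, genes called higher in red and the others in grey. In DKO against WT the 12 called genes lie between −0.56 for Nrp1 and 1.30 for Epha10, and all genes are grey in Smarca1 KO against WT.

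Smarca1 KO against WT compares the labelled Smarca1 genotypes without Cre. EdgeR called 0 of the 68 guidance genes here, against 0.336% of all genes tested, while 17 had an unadjusted p under 0.05 (18.9% of all genes had). DESeq2 called Efnb1, Plxnb2 and Plxnd1 as lower, and 706 genes in all. The smallest adjusted p was that of Plxnb2, whose Smarca1 KO libraries lay below all WT libraries (log2 fold change of −0.15 with SE 0.034, adjusted p = 0.0982). Efnb1 had −0.22 (adjusted p = 0.140) and Plxnd1, the receptor gene of semaphorin 3E, −0.30 (adjusted p = 0.123). Nrp1, Sema3c, Efna2 and Sema5a had log2 fold changes of 0.23, 0.23, 0.026 and −0.19. The median absolute log2 fold change was 0.16 for the members and 0.11 over all genes. Libraries did not overlap in 17 of the 68 (9 higher, 8 lower) of the members, against 26.2% of all genes. Without both replicates 1 of Smarca1 KO and DKO, 5 guidance genes rose and 3 fell, and the count over all genes went from 53 to 607. These libraries were highest in meningeal markers, whose part in this change was not tested.

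The 3 comparisons share libraries pairwise, so their values for a gene are not independent. The number of called members also moved with single libraries. In DKO against Smarca1 KO it was 9 without Smarca1 KO replicate 3, 4 without Smarca1 KO replicate 1 and 3 without WT replicate 3. It was 2 without Smarca1 KO replicate 2, DKO replicate 1, DKO replicate 2, WT replicate 1 or WT replicate 2. Without DKO replicate 3 it was 1, Nrp1. The count over all genes moved as well in these fits, between 286 and 795. In DKO against WT it was 14, 19 and 25 without Smarca1 KO replicates 1, 2 and 3 (1920, 2157 and 3178 genes in all). It was 17, 7 and 3 without DKO replicates 1, 2 and 3 (2129, 715 and 543 genes in all). Without WT replicates 1, 2 and 3 it was 2, 5 and 4 (450, 541 and 521 genes in all).

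Among 124 other genes of guidance pathways (adhesion partners, growth cone cytoskeleton, GTPase regulators, kinases and morphogen receptors), all tested, edgeR called 1 higher and 0 lower in DKO against Smarca1 KO (0.806%, against 4.39% of all genes), with 7 higher and 8 lower at an unadjusted p under 0.05 (18.4% of all genes had one) and 4 higher and 1 lower in DESeq2. The 1 was Wnt5a, a secreted Wnt that repels axons through Ryk (log2 fold change 0.53, adjusted p = 0.0488). In DKO against WT 6 rose and 10 fell (12.9%, against 12% of all genes). At an unadjusted p under 0.05, which 31% of all genes passed, 31 were higher and 20 lower. DESeq2 called 13 higher and 15 lower there, and 2869 genes in all. The median log2 fold change of the 124 was 0.074, against 0.0078 over all genes. In Smarca1 KO against WT edgeR called 0, against 0.336% of all genes, with 26 at an unadjusted p under 0.05 (18.9% of all genes had one) and 7 called by DESeq2 (2 higher, 5 lower). The 3 genes with the smallest p in DKO against WT were the Sonic hedgehog co-receptor genes Cdon (from 297 ± 7.79 to 193 ± 18.5 CPM, log2 fold change −0.62, adjusted p = 0.00723), Gas1 (−0.78, adjusted p = 0.00944) and Boc (−0.46, adjusted p = 0.0138). Celsr2, a seven-pass cadherin gene, fell by 0.34 on the log2 scale, the heparan sulphate proteoglycan gene Gpc1 by 0.35, Flrt3, the gene of an Unc5 and latrophilin ligand, by 0.30 and the kinase gene Abl1 by 0.18. Gap43, a growth cone protein gene, rose from 150 ± 8.29 to 215 ± 15.02 CPM (log2 fold change 0.52, adjusted p = 0.0300).

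Cell type markers moved in the same libraries. EdgeR's calls over all genes were 5.61% higher and 6.35% lower in DKO against WT and 1.73% higher and 2.66% lower in DKO against Smarca1 KO. Of 15 radial glia markers 6 fell and 2 rose in DKO against WT, with summed levels of 3002 to 3301 CPM in DKO, 2828 to 3217 CPM in Smarca1 KO libraries and 3485 to 3571 CPM in WT. Of 10 intermediate progenitor markers 5 fell, and their sum was 975 to 1012 CPM in DKO, 947 to 1178 CPM in Smarca1 KO libraries and 1175 to 1198 CPM in WT. Of 13 ventral interneuron markers 4 rose, with 1280 to 1532 CPM in DKO, 1183 to 1281 CPM in Smarca1 KO libraries and 1089 to 1268 CPM in WT. Of 10 microglia markers 4 rose, with 55.6 to 71.6 CPM in DKO, 42.4 to 51.2 CPM in Smarca1 KO libraries and 41.0 to 42.8 CPM in WT. Of 7 Cajal-Retzius cell markers 2 rose, with 472 to 508 CPM in DKO, 353 to 493 CPM in Smarca1 KO libraries and 384 to 412 CPM in WT, and 6 of the 7 were higher at an unadjusted p under 0.05. Of 14 projection neuron markers 2 rose and 1 fell, with 5475 to 6385 CPM in DKO, 5481 to 6871 CPM in Smarca1 KO libraries and 5247 to 5644 CPM in WT. In DKO against Smarca1 KO 3 intermediate progenitor markers, 1 radial glia marker and 1 projection neuron marker fell and 2 microglia markers rose. Of the projection neuron markers 4 were lower there at an unadjusted p under 0.05, and DESeq2 called 3 as lower. In Smarca1 KO against WT edgeR called 1 radial glia marker as lower, and DESeq2 called 1 higher and 7 lower. At an unadjusted p under 0.05, 2 radial glia markers were higher and 11 lower in that comparison (18.9% of all genes passed). In DKO against WT 2 were higher and 12 lower (31% of all genes passed). Of the listed markers, 6 of 8 for diencephalon and 6 of 7 for mural cells passed the filter on low counts, and those of the other lists all did. Projection neuron markers were highest in Smarca1 KO replicate 3 (6871 CPM), the library with the highest Nrp1 and Sema3c. Within DKO they were highest in replicate 3 (6385 CPM), the DKO library with the lowest Nrp1 (34.5 CPM) and Sema3c (29.7 CPM). The part of these cell types in the guidance gene results was not tested.

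Y-linked RNA also moved with the groups. All 9 libraries held it, at 238 to 247 CPM summed over 4 genes in DKO, 253 to 267 CPM in Smarca1 KO libraries and 258 to 266 CPM in WT, and 0.771 of the variance of its score (R2) lay between the groups. With that score as a covariate edgeR called no guidance gene in any comparison. Over all genes it called 11 in DKO against Smarca1 KO, 6 in DKO against WT and 56 in Smarca1 KO against WT. The fit without the covariate called 692, 1887 and 53. With it, 8 guidance genes had an unadjusted p under 0.05 for DKO against Smarca1 KO, 7 for DKO against WT and 15 between Smarca1 KO and WT. The share of all genes under that unadjusted p is not given here. With the covariate the log2 fold change of Sema6c in DKO against WT went from 0.24 to 0.028, that of Sema5b from −0.28 to −0.12 and that of Ephb1 from 0.26 to 0.15, while that of Nrp1 went from −0.56 to −0.88. In DKO against Smarca1 KO that of Sema5a went from −0.35 to −0.21 and that of Nrp1 from −0.80 to −1.07 (adjusted p = 0.0754). Y-linked RNA and genotype cannot be told apart here.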

How the data were processed

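Salmon 1.4.0, mm10 and DESeq2 are listed in the submitters' processing notes, DESeq2 without a role. The authors deposited Salmon's output for each library, which gives every transcript its estimated count (not normalised), its TPM and its lengths, per the file headers. RNA was Trizol-extracted and made into stranded mRNA libraries, per the labels' protocols. Not given in the sources used here are the index, the annotation and the library type, so it is open whether strand was used.

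Transcripts were matched to GENCODE M21 (GRCm38). 569 of 116546 had no match and held 0.104% to 0.116% of reads. Estimated counts were summed to 35498 genes and rounded. The 9 libraries were fitted together with edgeR 4.0.16 (limma 3.58.1, R 4.3.3): TMM scaling (factors 0.991 to 1.02), filterByExpr (15773 genes), group means without covariates, the quasi-likelihood F test and Benjamini-Hochberg adjustment over all genes tested, where a gene with an adjusted p under 0.05 was called. The biological coefficient of variation was 10.2% in common. Levels are TMM-scaled CPM or summed TPM as deposited. All adjusted p-values in the report are from this fit unless another tool or setting is named. The code was tested on simulated data. DESeq2 1.42.0, limma-voom and the other alternatives are described in the closing section.

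The genes and lists were chosen with earlier results of these data known. Smarca5 and Smarca1, all called guidance genes, the 3 with the highest TPM per family, the untested ones and up to 8 called pathway genes per comparison were named by rule, with known ligand or receptor partners. Other guidance genes named with a value were chosen after their values were seen. Promoters are RefSeq's (GRCm38.p6), of which 61 of 71 symbols matched. Same-numbered libraries deviated together with correlations between −0.063 and 0.35, so the numbers were not taken as pairs.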

Additional observations from a re-analysis of the deposited data

How the results depend on the processing

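Each count was recomputed under 22 alternatives per comparison: 9 that leave out a library and 13 others. Over the called guidance genes, Smarca5 and Smarca1, no value that was called in the main fit or in the alternative changed sign. Sign changes between uncalled values were not counted. Where the main result was called, 313 values kept the call and 105 lost it, and where it was not, 558 stayed uncalled and 14 became called. Scaling by RLE, upper quartile or library size, limma-voom and a stricter filter kept every count of members and of genes within 1.5 times.

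In DKO against Smarca1 KO (0 members higher, 5 lower, 692 genes called), DESeq2 gave 3 higher and 1183 genes. Members lower were 2 with effective-length offsets (389 genes), 1 with the 2 groups fitted alone (181 genes), 0 with the Y-linked covariate (11 genes), 3 without both replicates 1 of Smarca1 KO and DKO (398 genes) and 3 with protein-coding transcripts only (461 genes). In DKO against WT (3 higher, 9 lower, 1887 genes), DESeq2 gave 10 higher, 14 lower and 2869 genes, the 2 groups alone 17, 15 and 3443, the Y-linked covariate 0, 0 and 6, and leaving out both replicates 1 gave 11 higher and 14 lower. In Smarca1 KO against WT (0 members, 53 genes), DESeq2 gave 3 lower and 706 genes, no filter 90 genes, protein-coding transcripts 25 genes and leaving out both replicates 1 gave 5 higher, 3 lower and 607 genes. The causes were not tested.

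Leaving out each library in turn gave 0 to 3 members higher, 1 to 6 lower and 286 to 795 genes in DKO against Smarca1 KO, 0 to 12, 2 to 13 and 450 to 3178 in DKO against WT, and 0 to 0, 0 to 0 and 14 to 72 in Smarca1 KO against WT.

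With the replicate number as a block, 1 member was higher and 3 lower in DKO against Smarca1 KO, where Efna4 (adjusted p = 0.0790) and Sema3c lost their calls and Ephb1 gained one. In DKO against WT Epha10 lost its call and Ephb4 and Plxnd1 gained one, and 29 genes were called in Smarca1 KO against WT. Of the 9 libraries, 3 correlated best with a library of their own number in another group.

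The 3 libraries per group limit the precision of every value, and the counts of Epha1, Ntn5 and Plxnb3 were too low to test.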
